A study of Mus musculus with 8 samples.

Results

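A set of 7 genes that mark B cells were followed through 8 RNA sequencing libraries of mouse macrophages as a gauge of B cell transcripts in them. The genes are Cd79a, Cd79b, Ms4a1, Cd22, Blk, Ebf1 and Pax5, chosen by name. All 7 were found among the 30284 genes of the files, and all 7 are among the 13009 genes that reached at least 1 TPM in at least 2 libraries and were tested. Every library came from 7-week-old male C57BL6 mice and was labelled macrophage. There were 2 libraries in each of 4 groups: LPS for 4 h, IFNb for 4 h, IFNb for 4 h and then LPS for 4 h (LPS+IFNb), and saline for 4 h, with LPS and IFNb given as a stimulation of the peritoneum. LPS is lipopolysaccharide, a bacterial outer membrane component that macrophages sense, and IFNb is interferon beta, a type I interferon. The protocol in the labels calls the cells peripheral macrophages, and that they came from the peritoneal cavity is not stated in the labels. The labels name no cell sort, no dose and no count of mice. No saline, LPS or IFNb group lasted 8 h. Every comparison of LPS+IFNb with another group, and the interaction, therefore also differs in duration. The labels do not say that replicates came from separate animals, so p-values here rest on the scatter of these libraries alone, and that scatter may be technical.

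B cells recognise antigen through membrane immunoglobulin, which signals through the paired chains CD79A and CD79B. The peritoneal cavity of mice is rich in B cells, among them B-1 cells, which live beside its resident macrophages. Ebf1 and Pax5 encode the transcription factors that specify the B lineage and hold its identity, and EBF1 and PAX5 act on the genes of the receptor chains. Ms4a1 encodes CD20, Cd22 encodes an inhibitory receptor that binds sialic acid, and Blk encodes a Src family kinase of B cells.

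Macrophage transcripts far exceeded B cell transcripts in every library. A list of 10 macrophage markers (Adgre1, Csf1r, Lyz2, Cd68 and others) summed to 18370 to 18830 TPM in LPS, 16470 to 16710 TPM in IFNb, 14930 to 15340 TPM in LPS+IFNb and 19360 to 22040 TPM in saline libraries. The 7 B cell genes together took 60.5 to 149 TPM. Gata6, the factor that defines large peritoneal macrophages, stood at 0.862 to 2.11 TPM over the 8 libraries. It is 1 of 8 listed markers of those cells, some of them much higher. Together these summed to 47.3 and 69.2 TPM in LPS, 60.7 and 43.2 TPM in IFNb, 68.5 and 46.2 TPM in LPS+IFNb, and 46.3 and 64.1 TPM in saline libraries. Csf1r, the macrophage growth factor receptor gene, fell by 0.45 in LPS (limma adjusted p = 0.00468; 0.01 with median-ratio scaling), by 0.71 in IFNb (-0.32 and not called with that scaling) and by 1.14 in LPS+IFNb (-0.42), and Adgre1, which encodes F4/80, was not called, at 0.12, -0.40 and -0.27. Cd74, the class II invariant chain gene that B cells and macrophages both express, was at 0.16, -0.07 and 0.19 and not called. These Adgre1 and Cd74 values are on the TPM scale. With median-ratio scaling the median difference of 8 class II genes, Cd74 among them, was 0.32, 0.25 and 0.63 in LPS, IFNb and LPS+IFNb. That of the 10 macrophage markers was 0.18, 0.23 and 0.52. Depth is unknown, since TPM (a relative transcript abundance, each library scaled to the same sum after division by transcript length) keeps no read number. Most genes were lower than saline on this scale: the median log2 difference over all tested genes was -0.38 in LPS, -0.37 in IFNb and -0.61 in LPS+IFNb. Median-ratio scaling, which sets the typical gene level between libraries, brought these medians to 0.02, -0.03 and 0.01, and counts of members and listed genes called against saline are given on both scales.

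The summed level of the 7 genes was 74.2 and 65.6 TPM in LPS, 83.9 and 81.2 TPM in IFNb, 60.5 and 77.2 TPM in LPS+IFNb, and 149 and 137 TPM in saline libraries. Every treated library lay below both saline libraries, and the treated groups overlapped one another in part. Cd22 alone made up 47.4% to 61.7% of the sum. Without Cd22 the other 6 genes summed to 35.1 and 28.5 TPM in LPS, 40.2 and 42.2 TPM in IFNb, 31.8 and 36.0 TPM in LPS+IFNb, and 57.1 and 57.5 TPM in saline libraries, all treated libraries below saline on the TPM scale. With median-ratio scaling the 7-gene sum was 79.1 and 67.6 in LPS, 82.5 and 82.4 in IFNb, 76.8 and 95.9 in LPS+IFNb, and 122 and 96.5 in saline libraries, so the treated libraries stayed below saline, by little for LPS+IFNb replicate 2. Without Cd22, a sum added after seeing the data, the scaled values were 37.4 and 29.4 in LPS, 39.6 and 42.9 in IFNb, 40.4 and 44.6 in LPS+IFNb, and 46.8 and 40.6 in saline libraries. On that scale the IFNb and LPS+IFNb libraries overlapped saline and the LPS libraries lay below it. In bulk libraries, fewer B cells and less RNA of these genes per B cell cannot be told apart. Markers of T cells were also lower in sum: 10 of them summed to 26.7 and 28.4 TPM in LPS, 19.2 and 30.3 TPM in IFNb, 21.5 and 26.5 TPM in LPS+IFNb, and 50.1 and 45.3 TPM in saline libraries, and their part in the result was not tested. None of the 10 was at 0 in any library. Cd28, a T cell costimulatory receptor, was the T cell marker with the highest saline level, with 3.30 and 3.48 TPM in LPS, 2.53 and 2.90 TPM in IFNb, 0.982 and 1.51 TPM in LPS+IFNb, and 14.1 and 13.4 TPM in saline libraries, while Lck, a T cell kinase, was higher in 4 of the 6 treated libraries than in both saline libraries.

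**Figure D1:**
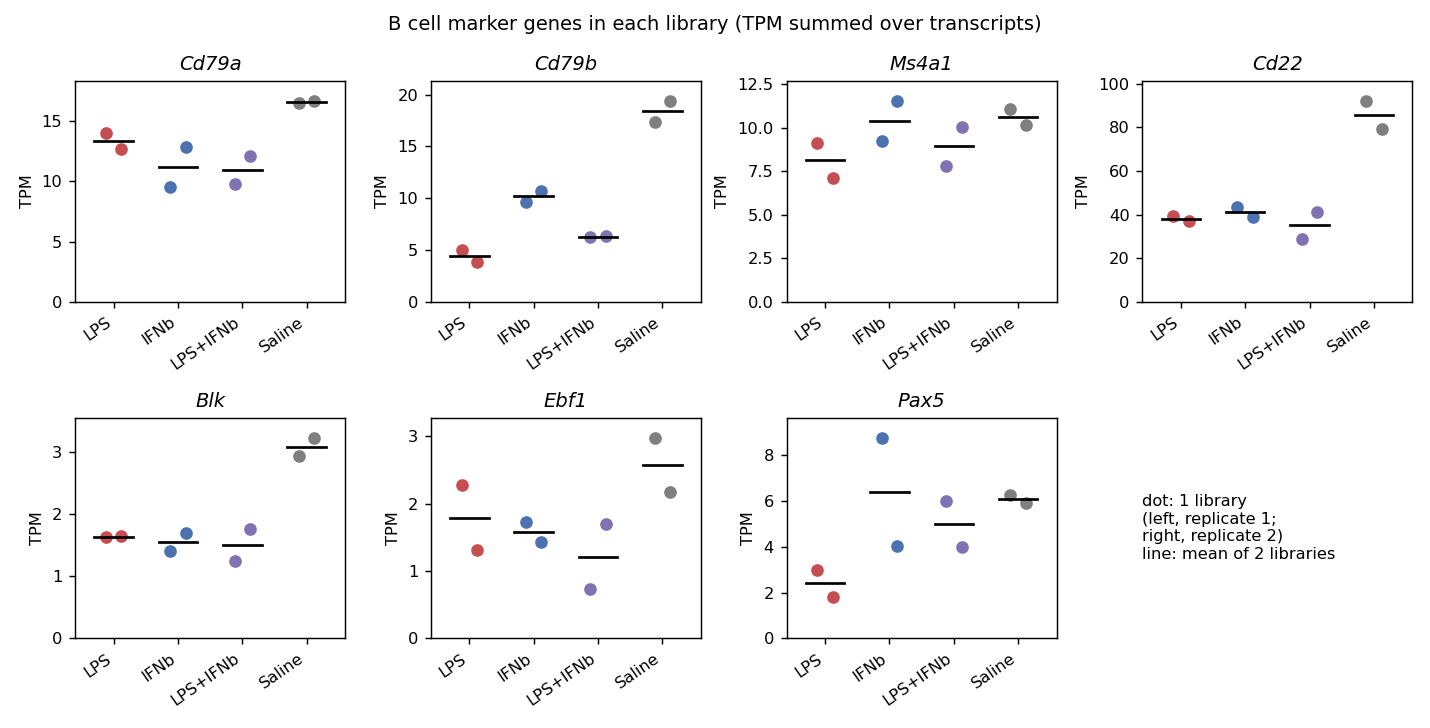
TPM of each of the 7 B cell marker genes, 1 panel a gene with its own linear axis from 0, grouped as LPS, IFNb, LPS+IFNb and saline. Each dot is 1 library and each line the mean of 2. Cd22 is the highest gene in every library, at 28.7 to 92.0 TPM, and Blk and Ebf1 are the lowest, between 0.727 and 3.23 TPM.

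Cd79a (ENSMUSG00000003379, GRCm38 chr7:24897381-24902197, plus strand) and Cd79b (ENSMUSG00000040592, chr11:106311341-106314762, minus strand) encode the signalling pair of the B cell receptor. Cd79a had 14.0 and 12.7 TPM in LPS, 9.50 and 12.9 TPM in IFNb, 9.81 and 12.1 TPM in LPS+IFNb, and 16.5 and 16.7 TPM in saline libraries. All 6 treated libraries lay below both saline libraries, and the IFNb libraries overlapped both other treated groups. Its log2 difference from saline was -0.54 ± 0.17 (SE) in IFNb (adjusted p = 0.0337) and -0.56 in LPS+IFNb (adjusted p = 0.0219), both past the limit of 0.05, and -0.29 ± 0.17 (SE) in LPS (adjusted p = 0.186), by limma with Benjamini-Hochberg adjustment. With median-ratio scaling no Cd79a call against saline was left, and its difference was 0.14 in LPS, -0.18 in IFNb and 0.11 in LPS+IFNb. The 134 bases before the annotated start of Cd79a on GRCm38 (RefSeq promoter table, GRCm38.p6, chr7:24897247-24897380, plus strand) are shown because EBF1 is known to act on this promoter. Capitals mark TCCCNNG, the left part of the EBF1 consensus (TCCC, a pair of free bases, GGGA), read on the other strand.
Cd79a promoter: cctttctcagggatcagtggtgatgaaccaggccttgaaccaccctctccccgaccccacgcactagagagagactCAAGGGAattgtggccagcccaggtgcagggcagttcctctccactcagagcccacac
The partial motif is common: 51.5% of all 250-base promoter windows of the table hold it on either strand, so the match is a description of the letters only.

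No groups overlapped for Cd79b, and how many of all tested genes share this was not counted. Cd79b had 5.02 and 3.88 TPM in LPS, 9.62 and 10.7 TPM in IFNb, 6.25 and 6.33 TPM in LPS+IFNb, and 17.4 and 19.4 TPM in saline libraries. The order from low to high was LPS, LPS+IFNb, IFNb and saline. Against saline, Cd79b fell by 1.84 ± 0.15 on the log2 scale in LPS (SE, limma adjusted p = 0.000166). In LPS+IFNb it fell by 1.41 (adjusted p = 0.000218), and in IFNb by 0.79 (adjusted p = 0.00482). The LPS and LPS+IFNb calls held with median-ratio scaling, at -1.41 (adjusted p = 0.000483) and -0.75 (adjusted p = 0.00585), and the IFNb call did not, at -0.42 (adjusted p = 0.0789). All 3 calls held whichever library was left out. Among tested genes ordered by TPM, Cd79b stood at the 56.7th percentile in saline and the 34.4th in LPS.

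The paired chains did not keep a fixed ratio. Cd79a TPM divided by Cd79b TPM was 2.79 and 3.29 in LPS, 0.988 and 1.20 in IFNb, 1.57 and 1.91 in LPS+IFNb, and 0.950 and 0.861 in saline libraries. A ratio within a library does not depend on how the library is scaled. Both libraries with LPS alone had the highest ratios, both LPS+IFNb libraries came next, and the IFNb and saline libraries lay near equality without overlapping. A ratio shows that the chains changed unequally and not which of them changed.

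**Figure D2:**
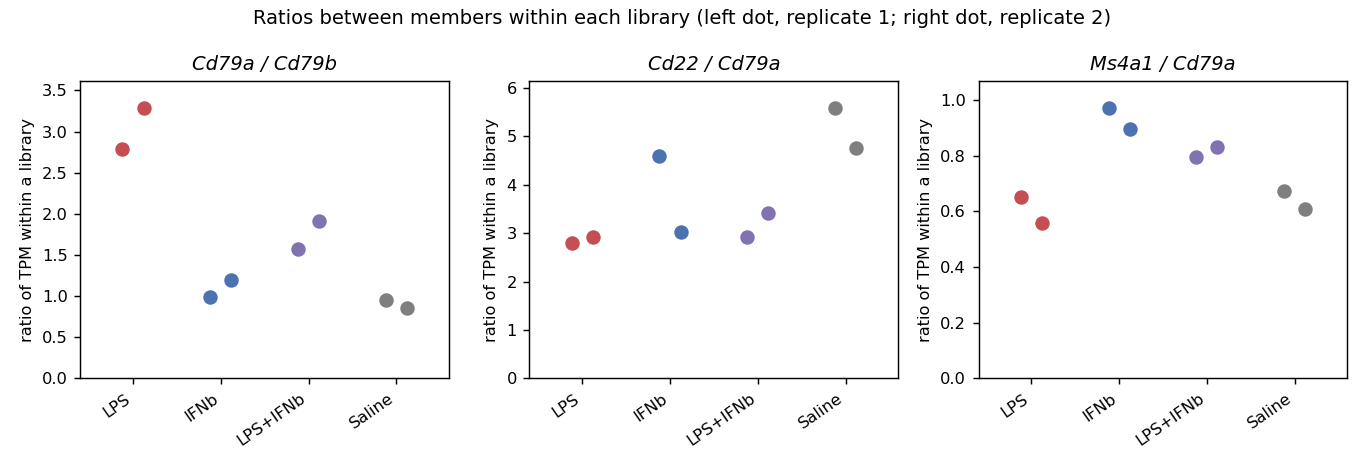
Ratios of TPM between Cd79a and Cd79b, Cd22 and Cd79a, and Ms4a1 and Cd79a within each library, by group, in the order LPS, IFNb, LPS+IFNb and saline, each point 1 library. The ratio of Cd79a to Cd79b is 2.79 and 3.29 in the LPS libraries, above every other library, while Ms4a1 to Cd79a spans 0.558 to 0.971 over all 8.

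Cd22 (ENSMUSG00000030577, chr7:30865402-30880342, minus strand) was the most abundant of the 7 genes. It had 39.1 and 37.1 TPM in LPS, 43.6 and 39.0 TPM in IFNb, 28.7 and 41.3 TPM in LPS+IFNb, and 92.0 and 79.2 TPM in saline libraries. Each treated library held well under the lower saline value, and the treated groups overlapped. Against saline, Cd22 fell by 1.14 ± 0.18 on the log2 scale in LPS (SE, limma adjusted p = 0.00229), by 1.03 in IFNb (adjusted p = 0.00379) and by 1.29 in LPS+IFNb (adjusted p = 0.000754). Cd22 was the only member whose 3 calls against saline all held with median-ratio scaling, at -0.69 (adjusted p = 0.0337), -0.64 (adjusted p = 0.0468) and -0.58 (adjusted p = 0.0463), and they also held whichever library was left out. Cd22 divided by Cd79a was 2.79 and 2.92 in LPS, 4.59 and 3.03 in IFNb, 2.92 and 3.41 in LPS+IFNb, and 5.58 and 4.75 in saline libraries, highest in saline. The Cd22 window is the only 1 of 5 promoter windows found for the members (Cd79a, Cd22, Pax5 and 2 for Ebf1) that holds the whole EBF1 consensus on either strand, which 0.8% of all windows hold. The match lies upstream of the start of Cd22-201 (30879028) and inside the annotated gene, since Cd22-202 (30880065), among others, starts further upstream. Capitals mark the match in the stretch at chr7:30879058-30879087 (GRCm38.p6, minus strand).
Cd22 promoter stretch: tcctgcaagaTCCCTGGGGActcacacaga

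Ms4a1 (ENSMUSG00000024673, chr19:11249675-11266241, minus strand) is the CD20 gene. It had 9.13 and 7.10 TPM in LPS, 9.23 and 11.5 TPM in IFNb, 7.80 and 10.1 TPM in LPS+IFNb, and 11.1 and 10.1 TPM in saline libraries. The IFNb and saline libraries overlapped, and the LPS and LPS+IFNb libraries lay below both saline libraries. No comparison passed the test, with differences from saline of -0.36 ± 0.19 in LPS (SE, limma adjusted p = 0.147), -0.04 in IFNb (adjusted p = 0.887) and -0.23 in LPS+IFNb (adjusted p = 0.296). With median-ratio scaling these were 0.06, 0.32 and 0.42, none called. Divided by Cd79a in the same library, Ms4a1 was 0.652 and 0.558 in LPS, 0.971 and 0.896 in IFNb, 0.795 and 0.830 in LPS+IFNb, and 0.672 and 0.608 in saline libraries, higher in the libraries given IFNb than in the others. Part of its TPM came from a transcript with a retained intron, Ms4a1-202, which held 3.43 and 2.99 TPM in LPS, 3.87 and 4.09 TPM in IFNb, 2.32 and 3.33 TPM in LPS+IFNb, and 2.61 and 2.92 TPM in saline libraries. The coding transcript Ms4a1-201 had 5.52 and 3.90 TPM in LPS, 5.09 and 7.07 TPM in IFNb, 5.46 and 6.65 TPM in LPS+IFNb, and 8.06 and 6.60 TPM in saline libraries, so the coding form was lowest in an LPS library and highest in a saline library.

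Blk (ENSMUSG00000014453, chr14:63372836-63417037, minus strand), the kinase gene, was low throughout. It had 1.62 and 1.64 TPM in LPS, 1.40 and 1.69 TPM in IFNb, 1.25 and 1.76 TPM in LPS+IFNb, and 2.94 and 3.23 TPM in saline libraries. The 6 treated libraries lay together, all well below both saline libraries. Blk fell by 0.63 ± 0.17 in LPS (SE, limma adjusted p = 0.0208), by 0.68 in IFNb (adjusted p = 0.0164) and by 0.71 in LPS+IFNb (adjusted p = 0.00926), on the log2(TPM + 1) scale, which understates the change of so low a gene. With median-ratio scaling its differences were -0.30, -0.40 and -0.22 and none was called.

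Ebf1 (ENSMUSG00000057098, chr11:44617317-45008091, plus strand) had 2.27 and 1.31 TPM in LPS, 1.72 and 1.43 TPM in IFNb, 0.727 and 1.70 TPM in LPS+IFNb, and 2.98 and 2.17 TPM in saline libraries. An LPS library overlapped saline, while the IFNb and LPS+IFNb libraries lay below it. No comparison was called over all its transcripts, with differences from saline of -0.37 ± 0.29 in LPS (SE, limma adjusted p = 0.320), -0.47 in IFNb (adjusted p = 0.218) and -0.72 in LPS+IFNb (adjusted p = 0.0614). Over its transcripts of at least 1000 bases, a choice made after seeing the data, Ebf1 had 1.21 and 1.04 TPM in LPS, 0.527 and 0.672 TPM in IFNb, 0.727 and 0.458 TPM in LPS+IFNb, and 1.46 and 1.82 TPM in saline libraries. On that sum no treated library overlapped saline. Ebf1 fell by 0.72 in IFNb (adjusted p = 0.00438) and by 0.73 in LPS+IFNb (adjusted p = 0.00266), and it was not called in LPS, at -0.31 (adjusted p = 0.104). The median of all tested genes on that sum was -0.42 in LPS, -0.38 in IFNb and -0.66 in LPS+IFNb. With median-ratio scaling, over all its transcripts, Ebf1 was at -0.055, -0.20 and -0.27 in LPS, IFNb and LPS+IFNb, none called.

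Pax5 (ENSMUSG00000014030, chr4:44524757-44710487, minus strand) differed most between replicates in IFNb. It had 2.99 and 1.83 TPM in LPS, 8.76 and 4.03 TPM in IFNb, 5.99 and 3.99 TPM in LPS+IFNb, and 6.26 and 5.92 TPM in saline libraries. The LPS libraries were the lowest 2 of the 8, and the IFNb and LPS+IFNb libraries overlapped saline. Pax5 fell by 1.08 ± 0.35 in LPS (SE, limma adjusted p = 0.0376) and was -0.02 in IFNb (adjusted p = 0.972) and -0.26 in LPS+IFNb (adjusted p = 0.530) from saline. The LPS call was lost with median-ratio scaling, at -0.70 (adjusted p = 0.161), and over transcripts of at least 1000 bases, at -0.23 (adjusted p = 0.350).

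Most of the Pax5 level, a large share of Cd22 and, in some libraries, a large share of Ebf1 rested on short annotated transcripts. Transcripts under 1000 bases held 78.0% and 67.5% of Pax5 TPM in LPS, 92.3% and 84.0% in IFNb, 86.7% and 64.7% in LPS+IFNb, and 90.3% and 78.6% in saline libraries. For Cd22 the share was 55.3% and 49.6% in LPS, 46.0% and 34.2% in IFNb, 44.2% and 55.1% in LPS+IFNb, and 63.7% and 53.3% in saline libraries. That of Ebf1 was 47.0% and 20.8% in LPS, 69.4% and 52.9% in IFNb, 0% and 73.0% in LPS+IFNb, and 50.9% and 16.0% in saline libraries. TPM divides by length, so a few reads on a short transcript weigh as much as many on a long one. The files list 20 Pax5 transcripts, 15 of Cd22 and 7 of Ebf1. They list 1 of Cd79a, 1 of Blk, 2 of Cd79b and 3 of Ms4a1, and none of these is under 1000 bases.

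**Figure D3:**
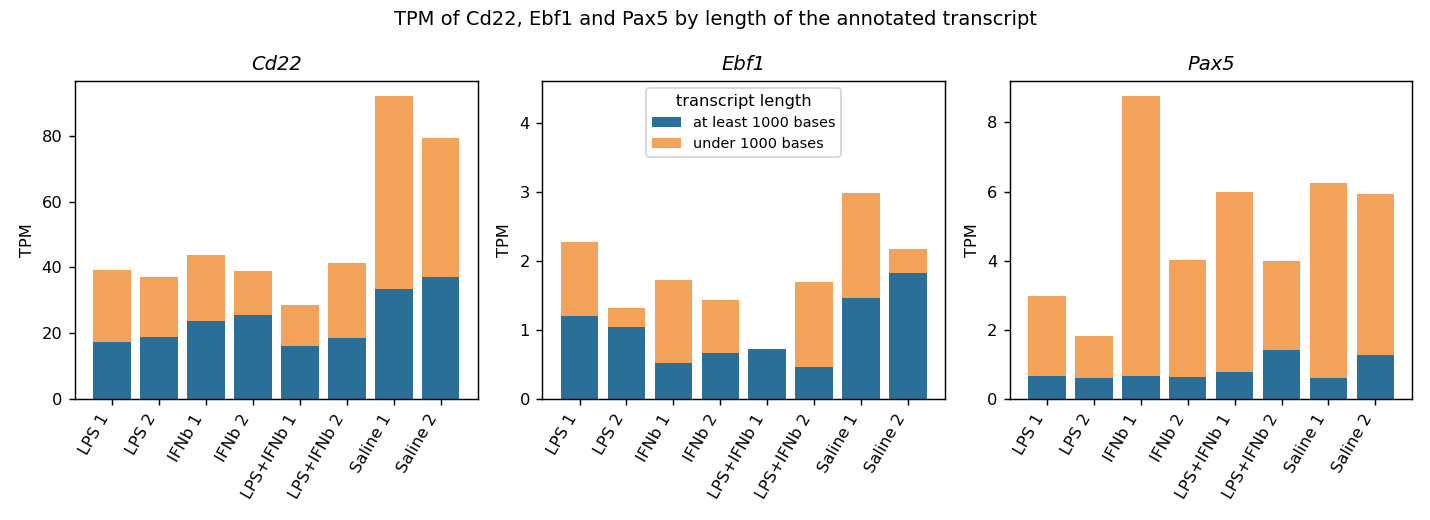
Stacked bars of the TPM of Cd22, Ebf1 and Pax5 in each library, divided into transcripts of at least 1000 bases (lower part) and under 1000 bases (upper part), in the order LPS, IFNb, LPS+IFNb and saline. Pax5 over transcripts of at least 1000 bases lies between 0.594 and 1.41 TPM, and its remaining level, up to 92.3% of the gene, comes from shorter ones.

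Some of the short Pax5 and Cd22 transcripts are shown because much of each is shared with longer transcripts of the same gene. Capitals mark the bases covered by 31-base words that occur in no other transcript of the files. Pax5-219 and Pax5-217 (both chr4:44679454-44703413, minus strand, GRCm38, 223 and 324 bases, the second shown in part) and a stretch of Cd22-212 (537 bases, chr7:30870492-30873419, minus strand) read as follows.
Pax5-219: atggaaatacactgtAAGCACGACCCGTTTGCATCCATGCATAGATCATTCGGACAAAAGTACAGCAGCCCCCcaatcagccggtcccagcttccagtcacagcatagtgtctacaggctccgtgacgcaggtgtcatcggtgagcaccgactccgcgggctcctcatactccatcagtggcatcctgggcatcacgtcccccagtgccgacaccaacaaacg
Pax5-217 stretch: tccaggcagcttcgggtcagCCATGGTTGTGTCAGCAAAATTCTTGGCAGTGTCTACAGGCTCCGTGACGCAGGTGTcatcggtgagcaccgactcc
Cd22-212 stretch: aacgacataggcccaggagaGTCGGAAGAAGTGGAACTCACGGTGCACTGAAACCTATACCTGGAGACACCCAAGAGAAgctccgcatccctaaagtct
Pax5-219 had 1.26 and 0 TPM in LPS, 5.59 and 0 TPM in IFNb, 2.73 and 0 TPM in LPS+IFNb, and 2.71 and 2.14 TPM in saline libraries. It was listed at 0 in replicate 2 of each treated group, and its gap between the IFNb replicates was larger than that of the whole gene. Pax5-217 had 0.057 and 0.335 TPM in LPS, 1.11 and 1.40 TPM in IFNb, 0.878 and 1.30 TPM in LPS+IFNb, and 2.01 and 1.43 TPM in saline libraries, with both LPS libraries the lowest. Cd22-212, annotated for nonsense-mediated decay, had 11.5 and 8.46 TPM in LPS, 9.12 and 1.73 TPM in IFNb, 4.02 and 11.4 TPM in LPS+IFNb, and 24.7 and 15.2 TPM in saline libraries. Both saline libraries were highest for it, and 29 of its 507 words are its own. The same held for the saline libraries in 2 short Cd22 transcripts not shown. Cd22-205, with none of its 436 words its own, had 8.3 and 8.7 TPM in LPS, 5.76 and 9.18 TPM in IFNb, 4.83 and 4.43 TPM in LPS+IFNb, and 22.4 and 11.3 TPM in saline libraries. Cd22-207 had 0 and 1.26 TPM in LPS, 4.65 and 2.4 TPM in IFNb, 3.8 and 4.22 TPM in LPS+IFNb, and 11.5 and 13.35 TPM in saline libraries.

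Over transcripts of at least 1000 bases Cd22 had 17.5 and 18.7 TPM in LPS, 23.6 and 25.6 TPM in IFNb, 16.0 and 18.5 TPM in LPS+IFNb, and 33.4 and 37.0 TPM in saline libraries. The saline libraries stayed apart from all others, and Cd22 was called lower in all 3 treated groups, by 0.92 in LPS (limma adjusted p = 0.000208), 0.50 in IFNb (adjusted p = 0.00459) and 0.99 in LPS+IFNb (adjusted p = 7.69e-05). The median of all tested genes on that sum was -0.42 in LPS, -0.38 in IFNb and -0.66 in LPS+IFNb, so Cd22 in IFNb lay near the typical gene. Median-ratio scaling was run over all Cd22 transcripts and not on that sum. Pax5 had 0.658 and 0.594 TPM in LPS, 0.671 and 0.643 TPM in IFNb, 0.796 and 1.41 TPM in LPS+IFNb, and 0.609 and 1.27 TPM in saline libraries on that sum. The groups overlapped for Pax5, and no comparison of it against saline was called.

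Counted together, 4 of the 7 genes were called lower in LPS than in saline (Cd79b, Cd22, Blk and Pax5), where 41.3% of all tested genes were called lower. In IFNb 4 of 7 were called lower (Cd79a, Cd79b, Cd22 and Blk), against 38.6% of all tested genes. In LPS+IFNb the same 4 as in IFNb were called lower, against 54.1% of all tested genes. None was called higher in any of the 3 (12.8%, 13% and 15.2% of all tested genes were), and none was higher at an unadjusted p under 0.05 in limma. These shares lie near the background, so the counts alone are not a result about B cell genes. The members' median log2 differences were -0.63 in LPS, -0.54 in IFNb and -0.71 in LPS+IFNb, against -0.38, -0.37 and -0.61 over all tested genes. The 3 comparisons share the saline libraries. The count in LPS was 2 without LPS replicate 1, LPS replicate 2 or saline replicate 2. In IFNb it was 2 without IFNb replicate 1 or saline replicate 2, and in LPS+IFNb it was 2 without LPS+IFNb replicate 1. With median-ratio scaling 2, 1 and 2 members were called lower in LPS, IFNb and LPS+IFNb. Over all tested genes that scaling called 2155, 1823 and 3204 lower, against 5368, 5020 and 7042 as reported.

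**Figure D4:**
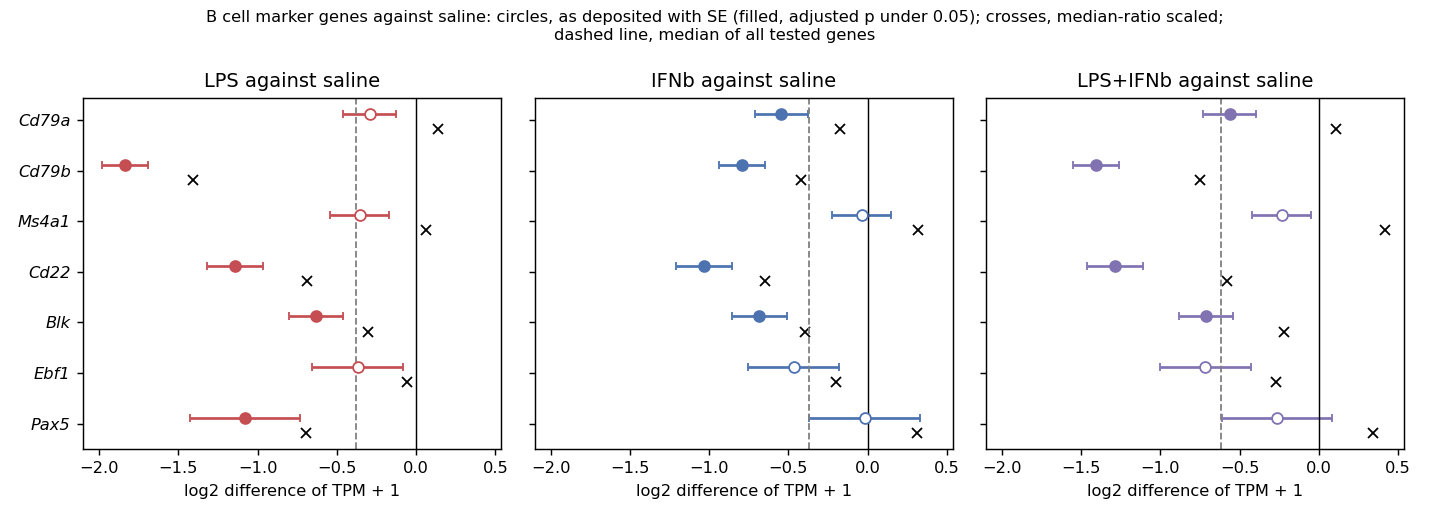
Log2 differences of the 7 genes from saline, on log2(TPM + 1), in LPS, IFNb and LPS+IFNb, as circles with bars of 1 SE from the limma fit (filled, adjusted p under 0.05), crosses for median-ratio scaling, and a dashed line at the median of all tested genes. Cd79b in LPS is the lowest point at -1.84, and Pax5 and Ms4a1 lie nearest to 0 in IFNb, at -0.02 and -0.04.

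Treated groups were also compared with each other. None of the 7 genes was called in LPS+IFNb against LPS, where limma called 34.8% of all tested genes in either direction. Cd79b came nearest, 0.43 higher in LPS+IFNb (adjusted p = 0.0619), and it alone had an unadjusted p under 0.05. With median-ratio scaling it was past the limit, at 0.66 (adjusted p = 0.0213). Cd79b was the 1 member called in LPS+IFNb against IFNb, lower by 0.62 (limma adjusted p = 0.0177), where 30.5% of all tested genes were lower. That call was lost with median-ratio scaling and without any 1 of the 4 libraries compared. In LPS against IFNb, Cd79b was again the 1 member called, at -1.04 (limma adjusted p = 0.00169), with 22.1% of all tested genes called lower. Pax5 stood at -1.06 there (adjusted p = 0.0523) and missed the limit.

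The interaction asks whether LPS and IFNb together moved a gene by other than the sum of their separate log2 differences from saline. The LPS+IFNb treatment also lasted longer than the others, and the interaction cannot tell this apart. It was past the limit for 1 of the 7 genes, Cd79b, at 1.22 ± 0.21 (SE, limma adjusted p = 0.0177), where 3.51% of all tested genes were called with a positive interaction and 7.96% in either direction. Cd79b in LPS+IFNb lay 1.41 below saline, less than the 1.84 of LPS and the 0.79 of IFNb would add up to. Cd22 had an interaction of 0.89 (adjusted p = 0.0907). The Cd79b interaction ranged from 1.07 to 1.37 when each library was left out, with adjusted p from 0.0289 to 0.0799. The count of members called was 0 without LPS replicate 2, IFNb replicate 1, IFNb replicate 2 or LPS+IFNb replicate 2. Without LPS+IFNb replicate 1 the Cd79b interaction was no longer called (adjusted p = 0.0635) and that of Cd22 was, at 1.15 (adjusted p = 0.0351).

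Other genes of the B lineage were read from lists set beside the 7. Each list count is to be read beside all tested genes, of which 41.3%, 38.6% and 54.1% were lower in LPS, IFNb and LPS+IFNb. Called higher were 12.8%, 13% and 15.2%. Median-ratio scaling called 2155, 1823 and 3204 genes lower and 2604, 2327 and 3489 higher. Of 5 tested immunoglobulin constant genes, limma called 2 lower in LPS, 1 in IFNb and 2 in LPS+IFNb, and none higher at an adjusted p under 0.05. With median-ratio scaling 1 was lower in LPS, none was called in IFNb, and in LPS+IFNb 1 was higher (Igkc) and none lower. Igkc, the kappa light chain constant gene, had 150.1 and 209 TPM in LPS, 224 and 213 TPM in IFNb, 243 and 203 TPM in LPS+IFNb, and 218 and 185 TPM in saline libraries. The Igkc groups overlapped, and its differences from saline of -0.18, 0.12 and 0.15 were not called (adjusted p = 0.419, 0.593 and 0.486). With median-ratio scaling the Igkc differences were 0.28, 0.51 and 0.87, the last called (adjusted p = 0.00982). Ighm, the IgM heavy chain gene, had 47.5 and 65.6 TPM in LPS, 69.9 and 62.1 TPM in IFNb, 67.9 and 50.7 TPM in LPS+IFNb, and 82.7 and 99.4 TPM in saline libraries. All treated libraries were below saline for Ighm, which was called lower in LPS, at -0.69 (adjusted p = 0.0275), and in LPS+IFNb, at -0.62 (adjusted p = 0.0311), and with median-ratio scaling neither was called, at -0.23 and 0.09. Iglc2, a lambda light chain constant gene, fell by 1.09 in LPS, 0.84 in IFNb and 1.13 in LPS+IFNb (adjusted p = 0.00388 in LPS), and with median-ratio scaling only its LPS difference was called, at -0.66 (adjusted p = 0.0493). Ighd, the IgD heavy chain gene, was not called, at -0.72, -0.28 and -0.54.

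Among 19 tested surface receptors, 6 were lower and 2 higher in LPS (all tested genes, 41.3% and 12.8%). In IFNb 7 were lower and 2 higher (38.6% and 13%), and in LPS+IFNb 7 lower and 3 higher (54.1% and 15.2%). Tnfrsf13b, the TACI receptor for BAFF and APRIL, fell by 0.93 in LPS, 0.83 in IFNb and 1.34 in LPS+IFNb, and Fcrl1, an Fc receptor-like protein of B cells, fell by 1.00, 1.12 and 1.21. With median-ratio scaling Tnfrsf13b was called only in LPS+IFNb, at -0.68, and Fcrl1 in no comparison against saline. Tnfrsf13c, the BAFF receptor, fell by 0.95 in LPS. Cd180, a Toll-like receptor relative that macrophages also make, rose by 2.04 in IFNb and 1.25 in LPS+IFNb. With median-ratio scaling, of 18 tested, the counts were 1 lower and 2 higher in LPS, 3 lower and 3 higher in IFNb, and 2 lower and 5 higher in LPS+IFNb.

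Of 17 receptor signalling genes, most of them also active in macrophages, 9 were lower and 6 higher in LPS (all tested genes, 41.3% and 12.8%). In IFNb 6 were lower and 4 higher (38.6% and 13%), and in LPS+IFNb 9 lower and 4 higher (54.1% and 15.2%). With median-ratio scaling the balance turned in LPS and LPS+IFNb, with 3 lower and 6 higher in LPS, 5 lower and 4 higher in IFNb, and 5 lower and 8 higher in LPS+IFNb. Malt1, a protease of the receptor's NF-kB arm, rose by 3.27 in LPS and by 2.79 in LPS+IFNb and fell by 1.39 in IFNb. Inpp5d, the lipid phosphatase SHIP1, fell by 2.29 in LPS and 1.97 in LPS+IFNb, and Prkcb, a protein kinase C that acts below the receptor, fell by 1.72 in IFNb and 1.86 in LPS+IFNb. Lyn, a Src family kinase shared with macrophages, rose by 1.43 in IFNb. Of 14 lineage transcription factors, 5 were lower and 2 higher in LPS, 4 lower and 1 higher in IFNb, and 5 lower and 4 higher in LPS+IFNb. With median-ratio scaling they were 3 lower and 3 higher in LPS, 1 lower and 2 higher in IFNb, and 1 lower and 8 higher in LPS+IFNb. Spib, a B cell Ets factor, fell by 0.86 in LPS (-0.50 and not called with that scaling), Tcf3, which encodes E2A, fell by 1.15 in LPS and 1.84 in LPS+IFNb, and Tcf4 rose by 0.52 in LPS, 2.12 in IFNb and 1.85 in LPS+IFNb.

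Of 5 tested genes tied to B-1 cells, 3 were lower and 1 higher in LPS (all tested genes, 41.3% and 12.8%). In IFNb 4 were lower and none higher (38.6% and 13%), and in LPS+IFNb 3 lower and 1 higher (54.1% and 15.2%). The list medians were -0.75, -0.83 and -1.21. With median-ratio scaling 1 was lower and 1 higher in LPS, 1 lower and 1 higher in IFNb, and 3 lower and 1 higher in LPS+IFNb, with medians of -0.38, -0.46 and -0.68. Bhlhe41, a transcription factor that B-1 cells need, had 41.2 and 25.4 TPM in LPS, 41.5 and 47.5 TPM in IFNb, 20.2 and 27.1 TPM in LPS+IFNb, and 84.5 and 118 TPM in saline libraries. Every treated library was lower than saline, and Bhlhe41 fell by 1.59, 1.15 and 2.04 in LPS, IFNb and LPS+IFNb, the IFNb call being lost with median-ratio scaling (adjusted p = 0.059). Zbtb32 had 4.43 and 3.59 TPM in LPS, 1.92 and 2.50 TPM in IFNb, 7.21 and 7.53 TPM in LPS+IFNb, and 1.32 and 1.62 TPM in saline libraries, the opposite order, and rose by 1.02 in LPS and 1.76 in LPS+IFNb. Of 7 plasma cell genes, 2 were higher and none lower in LPS, 2 lower and none higher in IFNb, and 2 each way in LPS+IFNb. With median-ratio scaling they were 3 higher and none lower in LPS, 1 lower and none higher in IFNb, and 3 higher and none lower in LPS+IFNb. Prdm1, which encodes the plasma cell regulator BLIMP1 and is also made by macrophages, rose by 0.99 in LPS and fell by 0.95 in IFNb. T cell markers were lower in 3 of 10 in LPS, 5 in IFNb and 6 in LPS+IFNb (all tested genes, 41.3%, 38.6% and 54.1%). None was higher on the TPM scale. With median-ratio scaling 1 was lower and 1 higher in LPS, 3 lower and none higher in IFNb, and 2 lower and 3 higher in LPS+IFNb. Cd3e, a chain of the T cell receptor complex, was -0.34 (limma adjusted p = 0.116), -0.51 (adjusted p = 0.038) and -0.66 (adjusted p = 0.0096) from saline in LPS, IFNb and LPS+IFNb, and was not called with median-ratio scaling.

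**Figure D5:**
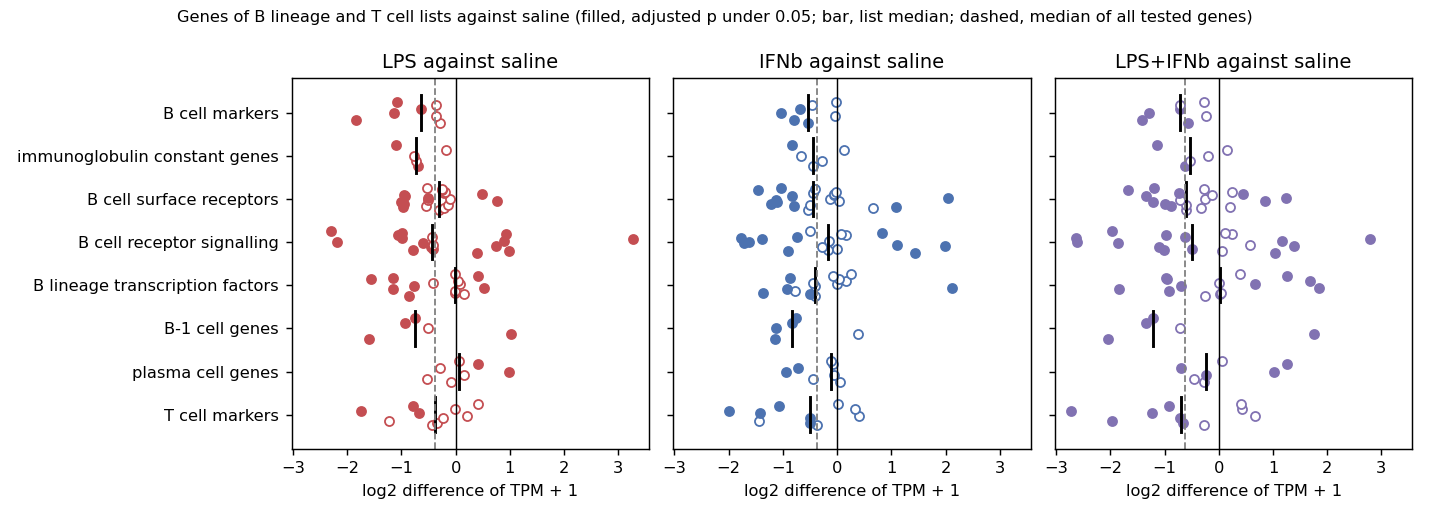
Log2 differences from saline, on log2(TPM + 1), of the tested genes of the B lineage lists and the T cell list in LPS, IFNb and LPS+IFNb, each dot 1 gene (filled, adjusted p under 0.05), with the list median as a bar and the median of all tested genes dashed. The medians of the 7 members lie at -0.63, -0.54 and -0.71, and those of the B-1 cell genes lie at -0.75, -0.83 and -1.21.

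The 7 genes were unevenly alike across the 8 libraries. Each was set against the mean of the other 6, standardised, and Pearson's r over the 8 libraries was 0.936 for Cd22, 0.871 for Cd79b, 0.867 for Blk, 0.746 for Ebf1, 0.68 for Ms4a1, 0.655 for Cd79a and 0.292 for Pax5. These points share their group and their library's scaling, so r is a description. The 10 genes whose pattern was most like the mean of all 7 had r from 0.981 to 0.991: Nmnat3, Gpd1l, Osbpl8, Ppil2, Mfap3, Dhx9, Nadsyn1, Zfp995, Nipbl and Zfp14. The search left out the 7 members, predicted genes, pseudogenes and antigen receptor genes, which include the immunoglobulin constant genes, so none of these could appear. None of the 10 is in the other B lineage lists.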

How the data were processed

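RNA sequencing libraries of macrophages (8, Illumina TruSeq, per the labels' protocols) were analysed. The authors deposited 1 file of TPM values per library, for 88198 Ensembl transcripts. Tools named in the submitters' processing notes are kallisto, a pseudoaligner, and the mm10 build; its version, options, strand and transcript set: not given in the sources used here. TPM keeps no depth, so counting error is unknown, and no interval is given.

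Of the transcripts, 86119 matched GENCODE M21 (GRCm38); the 2079 others held 1.01% to 1.95% of a library's TPM and were left out. TPM was summed per gene. A gene was tested if it reached 1 TPM in 2 or more libraries, on log2(TPM + 1) with limma 3.58.1 (R 4.3.3, trended prior) over all 8 libraries, with 1 mean per group, 4 residual and 2.54 prior degrees of freedom. Two-sided p-values were adjusted by Benjamini-Hochberg across 13009 genes and called at an adjusted p under 0.05. The procedure was tested on simulated data. Groups and replicate numbers come from the sample titles. Same-numbered libraries did not deviate together in every pair of groups (correlations of -0.156 to 0.141), so the number was not used as a block.

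The members and lists were chosen with earlier results of these data known. The text names all 7 members. From each B lineage list and other marker list it draws on the 4 called genes per direction with the lowest adjusted p in each comparison against saline, on Ighm, Ighd, Igkc, Cd74, Cd3e, Adgre1, Csf1r and Gata6, and on the 10 genes most like the members' mean. Of the genes that rule names, 1 is not reported here. Lck, Nkg7, Klrb1c and the transcripts described singly were chosen after their values were seen. Alternatives were other scalings (median-ratio, upper-quartile, nuclear protein-coding genes), a pseudocount of 0.1, no filter or a minimum of 5 TPM, only the groups compared, a replicate block, stricter limits, protein-coding transcripts, each library left out and, added after seeing the data, transcripts of at least 1000 bases, a crossed block and the median-ratio scaled sum without Cd22. Promoter sequences come from a RefSeq table (GRCm38.p6), which matched 4 of the 7 members.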

Additional observations from a re-analysis of the deposited data

Results flagged for a closer look

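Cd79b, the B cell receptor signalling chain, was the 1 member whose difference with LPS was called unequal with and without IFNb before it, by the interaction. The LPS+IFNb libraries also had a longer treatment than all others, which cannot be told apart from LPS after IFNb. LPS+IFNb minus IFNb was -0.62 and LPS minus saline was -1.84 on the log2 scale, and the interaction was 1.22 ± 0.21 (SE, limma adjusted p = 0.0177). Cd79b was 6.25 and 6.33 TPM in LPS+IFNb, against 9.62 and 10.7 TPM in IFNb, and 5.02 and 3.88 TPM in LPS, against 17.4 and 19.4 TPM in saline libraries. Cd79b was lower with LPS in both settings, in all libraries. With groups of 2 no library could be tested for standing apart from its group.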

How the results depend on the processing

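Against saline, Cd22 was called lower in all 3 treated groups, and Cd79b in LPS and LPS+IFNb, under every alternative run. No alternative joined median-ratio scaling with a choice of transcripts. Over all 7 genes and comparisons, 879 of the member values kept direction and side of the limit, 56 lost a call, 24 gained one and 49 changed sign.

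Members called lower numbered 4 in each comparison against saline. With median-ratio scaling the count was 2 in LPS, 1 in IFNb and 2 in LPS+IFNb. At an adjusted p under 0.01 it was 2 in LPS and 2 in IFNb, and with a minimum change of 1 it was 1 in IFNb and 2 in LPS+IFNb. With 1 library left out it ranged from 2 to 4 in LPS, 2 to 4 in IFNb and 2 to 5 in LPS+IFNb. In LPS+IFNb against LPS 1 member was higher with median-ratio scaling, upper-quartile scaling or transcripts of at least 1000 bases, and 2 with protein-coding transcripts, against 0 as reported. In LPS+IFNb against IFNb 0 were lower with either scaling or stricter limit and 2 with transcripts of at least 1000 bases, against 1 as reported (0 to 1 with a library left out). In LPS against IFNb 2 were lower with nuclear protein-coding scaling, a pseudocount of 0.1, a minimum of 5 TPM (5 members tested) or transcripts of at least 1000 bases, and 3 with protein-coding transcripts, against 1 (1 to 2 with a library left out). The interaction count was 0 at an adjusted p under 0.01 and 0 to 1 with a library left out. The cause of these shifts was not tested.

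With the replicate number as a block, 1 member was higher in LPS+IFNb against LPS and 2 were lower in LPS against IFNb; genes with a positive interaction numbered 263, against 457 without the block. The pairing of replicates is not stated, and a crossed block called 5 members lower in LPS against saline.

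Signs that changed with median-ratio scaling were 0.14 for Cd79a and 0.06 for Ms4a1 in LPS, 0.32 for Ms4a1 and 0.31 for Pax5 in IFNb, and 0.11 for Cd79a, 0.42 for Ms4a1 and 0.34 for Pax5 in LPS+IFNb, all against saline. They were 0.11 for Cd22 and 0.081 for Blk in LPS+IFNb against LPS, and 0.29 for Cd79a, 0.10 for Ms4a1, 0.067 for Cd22, 0.18 for Blk and 0.033 for Pax5 in LPS+IFNb against IFNb, and -0.016 for the Ebf1 interaction. With upper-quartile scaling they were 0.07 for Ms4a1 and 0.083 for Pax5 in IFNb and 0.06 and 0.012 in LPS+IFNb against saline, 0.001 for Blk in LPS+IFNb against LPS, and 0.17 for Cd79a and 0.10 for Blk in LPS+IFNb against IFNb. With protein-coding transcripts they were 0.20 for Cd22 in LPS+IFNb against LPS, and 0.004 for Ms4a1 and 0.002 for Ebf1 in LPS+IFNb against IFNb. With transcripts of at least 1000 bases Pax5 was 0.12 in LPS+IFNb against saline and 0.33 against IFNb.

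Leaving out 1 library also changed signs, all without a call. The values ranged from -0.18 to 0.11 for Ms4a1 and from -0.50 to 0.46 for Pax5 in IFNb against saline. They ranged, in LPS+IFNb against LPS, from -0.042 to 0.29 for Ms4a1, -0.40 to 0.11 for Cd22 and -0.23 to 0.069 for Blk. In LPS+IFNb against IFNb they ranged from -0.22 to 0.18 for Cd79a, -0.51 to 0.002 for Cd22, -0.18 to 0.12 for Blk, -0.57 to 0.07 for Ebf1 and -0.72 to 0.23 for Pax5. In LPS against IFNb they ranged from -0.029 to 0.13 for Blk and -0.15 to 0.35 for Ebf1, and for the interaction from -0.006 to 0.32 for Ms4a1 and -0.21 to 0.44 for Ebf1.

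Over all tested genes, median-ratio scaling called 2155 lower and 2604 higher in LPS (5368 and 1664 as reported), 1823 and 2327 in IFNb (5020 and 1697) and 3204 and 3489 in LPS+IFNb (7042 and 1980).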

Other observations

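Markers of other cell types were summed in the same libraries. Mesothelial markers (Msln, Upk3b, Wt1, keratins and Lrrn4) summed to 4.94 and 14.1 TPM in LPS, 14.3 and 5.84 TPM in IFNb, 11.99 and 4.50 TPM in LPS+IFNb, and 8.53 and 16.9 TPM in saline libraries, a larger gap between replicates than between groups. Natural killer cell markers summed to 5.95 and 4.98 TPM in LPS, 11.6 and 16.1 TPM in IFNb, 11.6 and 17.4 TPM in LPS+IFNb, and 6.83 and 5.81 TPM in saline libraries, higher in every library given IFNb. Much of that sum was Gzma, with 6.88 and 8.18 TPM in IFNb and 6.90 and 9.87 TPM in LPS+IFNb, against 1.58 and 1.57 TPM in saline. In the libraries given IFNb, Gzma, Prf1 and Nkg7 were above both saline libraries and Klrb1c was below both. The other listed markers overlapped saline. Eosinophil markers summed to 10.3 and 10.2 TPM in LPS, 12.6 and 12.1 TPM in IFNb, 7.94 and 7.30 TPM in LPS+IFNb, and 17.9 and 20.9 TPM in saline libraries, lower in every treated library. These sums were described and not tested.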
